A study of Saccharomyces cerevisiae with 15 samples.

Results

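Budding yeast cultures of a control strain treated for 1 h with CPTH2 were compared with cultures of the same strain that received only the solvent DMSO. The samples were chosen by their titles, the 3 of the control strain with CPTH2 and the 3 of the control strain with DMSO, which are 6 of the 15 samples of the study. CPTH2 is a synthetic inhibitor of the histone acetyltransferase Gcn5, and the study used it beside Curcumin, a plant polyphenol known to act on the p300 and CBP enzymes of animals, and beside scFv-58F, an intrabody against histone H3 acetylated at lysine 9. All cultures were of strain L40, which is of mating type a and carries the alleles his{delta}200, trp1-901, leu2-3,112 and ade2. It also carries the lexA reporters LYS2::(lexAop)4-HIS3 and URA3::(lexAop)8-lacZ, and its label ends in Gal4. The 6 cultures carried the empty vector pL220 with an HA tag and grew in SD-L medium with 0.4% DMSO, to which 400 µM CPTH2 was added in 3 of them. The samples of a group are biological replicates according to the study's methods, and p-values measure the spread between them.

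Gcn5 is the catalytic subunit of the SAGA and ADA complexes, which acetylate histone H3, and SAGA is recruited to promoters of stress-responsive and highly regulated genes. Yeast cells answer many kinds of stress with a common programme, in which chaperones, antioxidant enzymes and storage carbohydrate genes rise and genes for ribosomes and growth fall. This programme is read through a small number of promoter elements, among them the heat shock element bound by Hsf1, the stress response element bound by Msn2 and Msn4, the Yap1 site, the Pdr1 and Pdr3 site, and the PAC and RRPE elements of ribosome assembly genes.

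The reads counted on genes numbered 9962173 to 18878167 per sample, and a floor of 3 counts amounted to 1.59e-05% to 3.01e-05% of the reads, which covers counting error only. Reads that fell outside genes made up 3.15% to 3.65% of the mapped reads in 4 samples, 8.55% in DMSO replicate 1 and 6.57% in CPTH2 replicate 3. Without these 2 samples, a setting added after seeing the data, 2039 genes were called against 2043 with them. The markers fitted the genotype in part. The a-specific genes STE2, MFA1, MFA2, BAR1, STE6 and AGA2 were expressed, TRP1 had 0 counts in all 6 samples, and HIS3 was present at 438 to 619 CPM (CPM, counts scaled to a common library size by the TMM method). Of the a-specific genes, MFA1 was called higher after CPTH2 (log2 fold change 0.67). MFA2, BAR1 and AGA2 were called lower (log2 fold changes -1.05, -0.96 and -0.81), and STE2 and STE6 were not called. SAG1, an α-specific agglutinin gene, was not low for a strain of mating type a, with 246 to 566 counts per sample. SAG1 was called higher after CPTH2 (23.6 to 25.3 CPM in DMSO and 35.7 to 40.3 CPM in CPTH2). The other α-specific genes examined were lower than SAG1 and not called. They were MF(ALPHA)1 (0.0973 to 1.07 CPM), MF(ALPHA)2 (1.46 to 2.15 CPM) and STE3 (10.51 to 13.97 CPM). LEU2 is the gene of the selection medium SD-L, in which the cultures with the vector pL220 grew. It stood at 12970 to 15470 CPM in the DMSO samples and at 7316 to 8166 CPM in the CPTH2 samples. LEU2 was called lower (log2 fold change -0.88). Its part in the results was not tested, nor was the share of its reads that came from the vector.

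A gene was tested where 3 or more of the 15 samples held 10 or more counts, and of 6588 such genes 2043 were called, which is 31%. A call needed a p below 0.05 in the quasi-likelihood test of edgeR, adjusted by Benjamini and Hochberg's method over all 6588 genes and given below as the edgeR adjusted p, and a change of 1.5-fold or more. In CPTH2, 928 genes (14.1%) rose and 1115 (16.9%) fell, and the median log2 fold change of all tested genes was -0.03. Both directions held large changes, with 354 genes up and 302 down by at least 2-fold. The CPTH2 and DMSO samples did not overlap for 4612 of the 6588 tested genes (70.01%) and for 2024 of the called genes (99.07%). A lack of overlap, given below for named genes, therefore does not set them apart from other called genes. Upper-quartile scaling moved this split to 656 genes up and 1589 down and the median of all genes to -0.17, and small changes are to be read beside that shift. Among the called genes, CPTH2 replicate 2 lay farthest from DMSO for 698 of the 928 that rose (75.2%) and for 632 of the 1115 that fell (56.7%).

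Genes were grouped into 61 lists of pathways and complexes. Of these, 37 are described here by the number of members that rose or fell and by the median log2 fold change of all members tested, to be read beside 14.1% up, 16.9% down and a median of -0.03 for all genes.

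**Figure D1:**
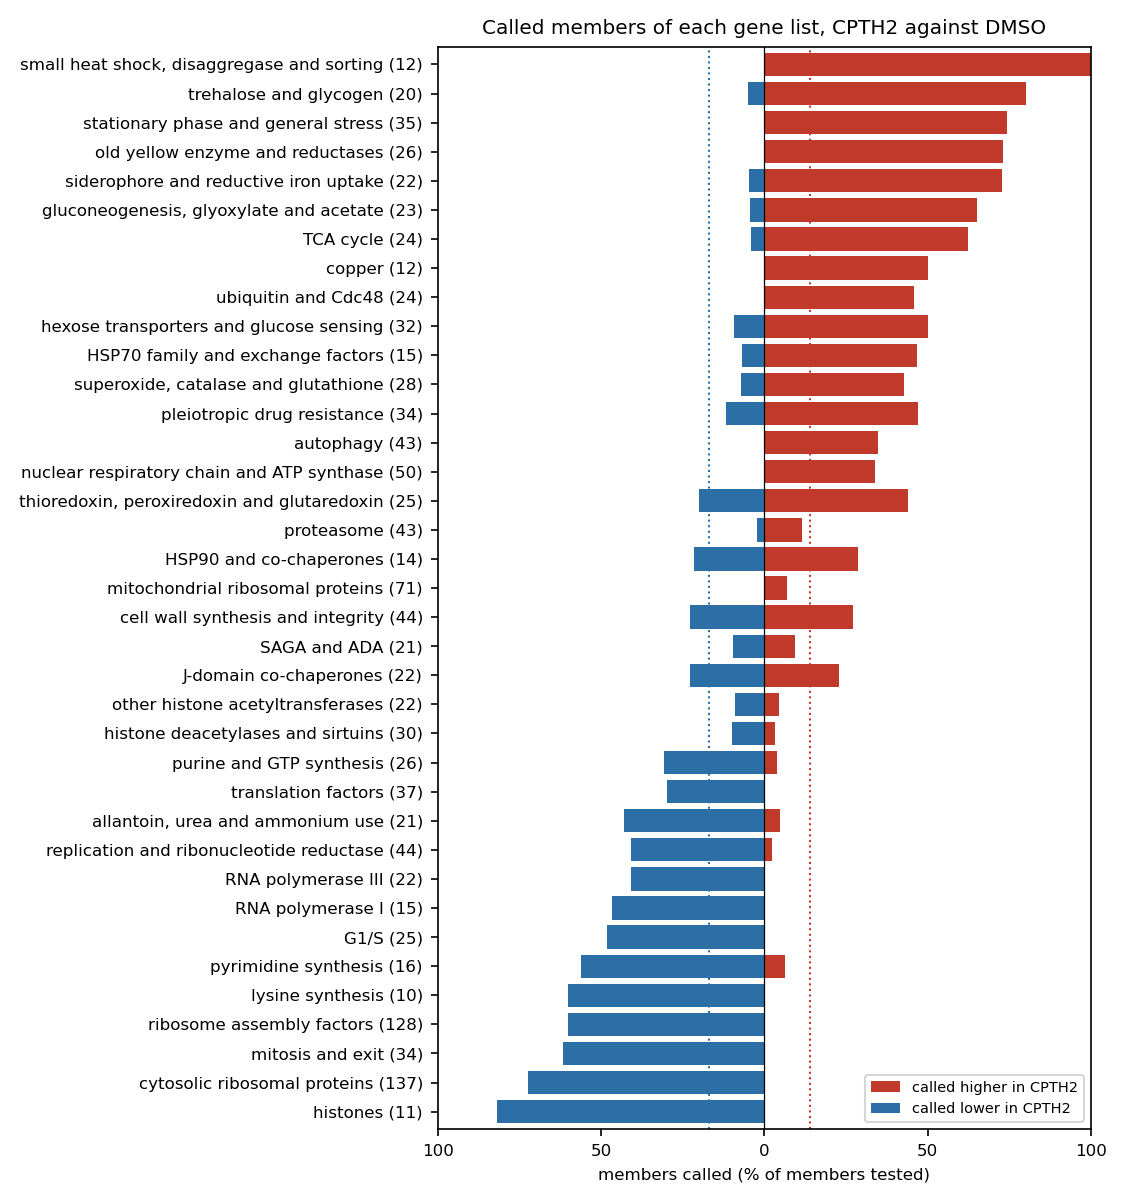
Percentage of the tested members of 37 gene lists called higher (right, red) or lower (left, blue) in CPTH2 than in DMSO, with the number of members tested in brackets. Dotted lines mark the 14.1% called higher and 16.9% called lower among all 6588 genes. All 12 members of the small heat shock list rose, and 9 of 11 histone genes fell.

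Chaperones of the heat shock response rose. In the list of small heat shock proteins, disaggregases and sorting factors, 12 of 12 members rose and 0 fell, with a median log2 fold change of 1.72. HSP26 encodes a small heat shock protein that holds unfolded proteins in aggregates from which they can be recovered. Its expression was 28.5, 30.1 and 32.9 CPM in the DMSO samples and 721, 1282 and 739 CPM in the CPTH2 samples. HSP26 rose by 4.90 ± 0.25 on the log2 scale (SE, edgeR adjusted p = 5.1e-06), with no overlap of the groups and CPTH2 replicate 2 the highest. HSP104, the disaggregase that pulls proteins out of aggregates, was at 639, 646 and 634 CPM in the DMSO samples and 1679, 2531 and 2116 CPM in the CPTH2 samples. HSP104 rose by 1.72 ± 0.15 on the log2 scale (SE, edgeR adjusted p = 3.2e-05), again without overlap. BTN2, a sorting factor of misfolded proteins, was at 44.7, 60.5 and 44.2 CPM in the DMSO samples and 182, 453 and 244 CPM in the CPTH2 samples, so that the 3 CPTH2 samples were uneven but all above DMSO. BTN2 rose by 2.55 ± 0.33 on the log2 scale (SE, edgeR adjusted p = 0.00038). HSP42, another small heat shock protein, and HSP78, the mitochondrial disaggregase, rose by 1.73 and 1.28 on the log2 scale.

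Hsp70 and Hsp90 chaperones rose in part, among them the stress-inducible SSA3, SSA4 and HSP82. Of the 15 genes of the Hsp70 family and its exchange factors, 7 rose and 1 fell (median 0.53). SSA3, a stress-inducible cytosolic Hsp70, was at 17.8, 16.3 and 15.6 CPM in the DMSO samples and 251, 466 and 319.7 CPM in the CPTH2 samples. SSA3 rose by 4.38 ± 0.23 on the log2 scale (SE, edgeR adjusted p = 5.7e-06), with CPTH2 replicate 2 the highest. SSA4, another inducible member, rose by 2.01, and SSA1, whose reads can be shared with the near-identical SSA2, rose by 2.10 on the log2 scale. SSB1, the ribosome-bound Hsp70, was not called (log2 fold change -0.17 ± 0.13, SE, edgeR adjusted p = 0.26), and SNL1, an exchange factor of the nuclear envelope, fell by 1.31 ± 0.16 on the log2 scale (SE, edgeR adjusted p = 0.00016). Among 14 genes of Hsp90 and its co-chaperones, 4 rose and 3 fell (median 0.21). HSP82, the inducible Hsp90, was at 179.9, 180.5 and 160.4 CPM in the DMSO samples and 689.6, 1409.8 and 930.1 CPM in the CPTH2 samples, with every CPTH2 sample above every DMSO sample. HSP82 rose by 2.54 ± 0.23 on the log2 scale (SE, edgeR adjusted p = 3.7e-05). HSC82, its constitutive copy, was not called (log2 fold change 0.20 ± 0.12, SE, edgeR adjusted p = 0.17, overlapping groups). STI1, which joins Hsp70 to Hsp90, rose by 1.66 ± 0.18 on the log2 scale (SE, edgeR adjusted p = 7.7e-05), and PPT1, a phosphatase that acts on Hsp90, fell by 1.19 ± 0.14 on the log2 scale (SE, edgeR adjusted p = 0.00012). J-domain co-chaperones showed no common direction, with 5 of 22 up, 3 under upper-quartile scaling, and 5 down. SIS1, a J-domain partner of Hsp70 with a role in aggregate handling, was at 161, 160.0 and 146 CPM in the DMSO samples and 368, 572 and 426 CPM in the CPTH2 samples, without overlap. SIS1 rose by 1.55 ± 0.16 on the log2 scale (SE, edgeR adjusted p = 5.5e-05), while YDJ1, the most studied cytosolic J-domain protein, was not called (log2 fold change 0.26 ± 0.18, SE, edgeR adjusted p = 0.23).

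Stretches upstream of 4 of these genes are shown because they hold heat shock elements, and those of HSP26 and HSP104 stress response elements as well. They were read from the reference genome of build R64 (sacCer3), so that strain L40 may differ from them. Capitals mark heat shock elements (TTCNNGAA, read as TTC, any 2 bases and GAA) and stress response elements (AGGGG on either strand).
HSP26, chrII:381670-381714, plus strand: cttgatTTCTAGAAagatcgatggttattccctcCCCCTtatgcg
HSP104, chrXII:88315-88413, plus strand: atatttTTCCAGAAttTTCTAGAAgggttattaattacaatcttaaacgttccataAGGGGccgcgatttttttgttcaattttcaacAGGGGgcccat
SIS1, chrXIV:619881-619911, minus strand: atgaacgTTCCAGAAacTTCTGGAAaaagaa
BTN2, chrVII:772104-772133, plus strand: ttttttTTCTAGAAagTTCCGGAAaattgc
The stretches of HSP104, SIS1 and BTN2 hold tandem heat shock elements. In the 500 bases upstream of the start codon, TTCNNGAA occurred in 21.2% of 5934 windows of all genes, in 25.1% of those of called genes that rose, in 23.1% of those of called genes that fell and in 75% of those of the small heat shock list (9 of 12). AGGGG, counted on both strands, occurred in 34.2% of all windows, 52.6% of the windows of genes that rose and 24.5% of those of genes that fell. Every motif here and below was searched on both strands, and a match describes letters and not binding.

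Genes of protein breakdown rose in part. Of 24 ubiquitin and Cdc48 genes, 11 rose and 0 fell (median 0.47), with 7 rising under upper-quartile scaling. RPN4, the transcription factor of proteasome genes, was at 135, 155 and 147 CPM in the DMSO samples and 356, 553 and 378 CPM in the CPTH2 samples. RPN4 rose by 1.56 ± 0.17 on the log2 scale (SE, edgeR adjusted p = 7e-05), and CDC48, the segregase that extracts ubiquitinated proteins, rose by 0.86 ± 0.13 on the log2 scale (SE, edgeR adjusted p = 0.00042). UBI4, the stress polyubiquitin gene, rose by 0.76 on the log2 scale. The 43 proteasome genes had a median of 0.37, but only 5 were called up (11.63%, below the 14.1% of all tested genes) and 1 down. The count of rises went from 5 to 1 under upper-quartile scaling, to 12 without CPTH2 replicate 1 and to 8 without CPTH2 replicate 3. RPN2, a scaffold subunit of the regulatory particle, rose by 0.74, and POC4, a proteasome assembly factor, fell by 1.19 ± 0.15 on the log2 scale (SE, edgeR adjusted p = 0.00015). Autophagy genes numbered 15 up and 0 down of 43 (median 0.45), and 11 up and 2 down under upper-quartile scaling. Log2 fold changes were 1.66 for ATG36, a receptor for peroxisomes, and 0.89 for PEP4, a vacuolar protease.

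Pleiotropic drug resistance genes held 2 of the 10 largest increases. The family of ATP-driven pumps exports drugs and is controlled by the zinc cluster factors Pdr1 and Pdr3. Of the 34 genes of the list, 16 rose and 4 fell (median 0.44). PDR5, the main multidrug pump of the plasma membrane, was at 92.6, 86.9 and 88.1 CPM in the DMSO samples and 908, 2182 and 1291 CPM in the CPTH2 samples. PDR5 rose by 4.03 ± 0.30 on the log2 scale (SE, edgeR adjusted p = 1.5e-05), with no overlap and CPTH2 replicate 2 the highest. PDR15, its paralogue, was at 39.8, 42.3 and 45.3 CPM in the DMSO samples and 302, 560.4 and 369 CPM in the CPTH2 samples, which put all 3 CPTH2 samples above DMSO. PDR15 rose by 3.27 ± 0.22 on the log2 scale (SE, edgeR adjusted p = 9.6e-06). SNQ2 and YOR1, pumps of other substrate ranges, rose by 2.93 and 2.72, and PDR3, a regulator, rose by 0.88 on the log2 scale. AQR1, a transporter of another family linked to short-chain acid resistance, fell by 1.28 ± 0.24 on the log2 scale (SE, edgeR adjusted p = 0.0015).

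Most genes in the list of old yellow enzymes and reductases rose, and none of them fell. In this list 19 of 26 members rose and 0 fell (median 1.17). OSI1 was at 5.26, 5.31 and 4.21 CPM in the DMSO samples and 83.6, 252 and 102 CPM in the CPTH2 samples, with the DMSO samples close together and CPTH2 replicate 2 well above the other CPTH2 samples. OSI1 rose by 4.88 ± 0.60 on the log2 scale (SE, edgeR adjusted p = 0.0013). OYE3, an old yellow enzyme that reduces unsaturated carbonyls, was at 14.8, 20.8 and 16.3 CPM in the DMSO samples and 120.1, 235 and 129 CPM in the CPTH2 samples, without overlap. OYE3 rose by 3.20 ± 0.27 on the log2 scale (SE, edgeR adjusted p = 3.2e-05), and OYE2, its paralogue, rose by 1.58 ± 0.15 on the log2 scale (SE, edgeR adjusted p = 4e-05). GRE2, a methylglyoxal reductase, was at 57.4, 81.8 and 61.8 CPM in the DMSO samples and 519, 849 and 504 CPM in the CPTH2 samples. GRE2 rose by 3.22 ± 0.23 on the log2 scale (SE, edgeR adjusted p = 1.4e-05), and YOL150C, a reading frame that overlaps GRE2 so that their reads cannot be told apart, rose by 3.43.

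Upstream stretches of the pumps and reductases are shown for the Pdr1 and Pdr3 element (TCCGCGGA), the Yap1 site (TTACTAA, or TTAGTAA on the other strand) and the stress response element, in capitals.
PDR5, chrXV:619343-619404, plus strand: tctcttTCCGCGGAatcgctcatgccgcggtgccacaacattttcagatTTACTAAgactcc
PDR15, chrIV:1278824-1278870, plus strand: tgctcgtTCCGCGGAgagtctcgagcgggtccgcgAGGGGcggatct
OSI1, chrXI:304886-304964, plus strand: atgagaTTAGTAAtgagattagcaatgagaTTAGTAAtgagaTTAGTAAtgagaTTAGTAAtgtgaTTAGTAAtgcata
OYE3, chrXVI:227507-227589, minus strand: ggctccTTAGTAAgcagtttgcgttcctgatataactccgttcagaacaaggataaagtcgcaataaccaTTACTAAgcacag
OSI1 holds 5 Yap1 sites in the stretch shown. TTACTAA occurred in 11.8% of all windows of 500 bases and in 11.8% of those of genes that rose and 13.2% of those of genes that fell, but in 40% of those of the reductase list (10 of 25) and 41.2% of those of the drug resistance list (14 of 34). TCCGCGGA occurred in 0.64% of all windows, 1.77% of those of genes that rose, 0.197% of those of genes that fell and 14.7% of those of the drug resistance list (5 of 34).

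Redox genes changed less evenly. Of 25 thioredoxin, peroxiredoxin and glutaredoxin genes, 11 rose and 5 fell (median 0.43), and under upper-quartile scaling 6 rose. GPX1, a glutathione peroxidase, rose by 1.22 ± 0.10 on the log2 scale (SE, edgeR adjusted p = 2.3e-05), and GPX2, another peroxidase of this family, fell by 1.76 ± 0.16 on the log2 scale (SE, edgeR adjusted p = 3.6e-05). TSA1, the main cytosolic peroxiredoxin, was not called (log2 fold change 0.02 ± 0.11, SE, edgeR adjusted p = 0.86, overlapping groups). Of 28 superoxide, catalase and glutathione genes, 12 rose and 2 fell (median 0.35). CTT1, the cytosolic catalase, was at 225, 192 and 233 CPM in the DMSO samples and 614, 871 and 649 CPM in the CPTH2 samples, with no overlap. CTT1 rose by 1.72 ± 0.15 on the log2 scale (SE, edgeR adjusted p = 3.2e-05), and GTT2, a glutathione transferase, rose by 2.34. GND2, a minor isoform of the oxidative pentose phosphate pathway, rose by 2.77 ± 0.16 on the log2 scale (SE, edgeR adjusted p = 7.2e-06), and TKL1, a transketolase, fell by 0.70 ± 0.13 on the log2 scale (SE, edgeR adjusted p = 0.0015), a call lost without CPTH2 replicate 1 (log2 fold change -0.55).

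**Figure D2:**
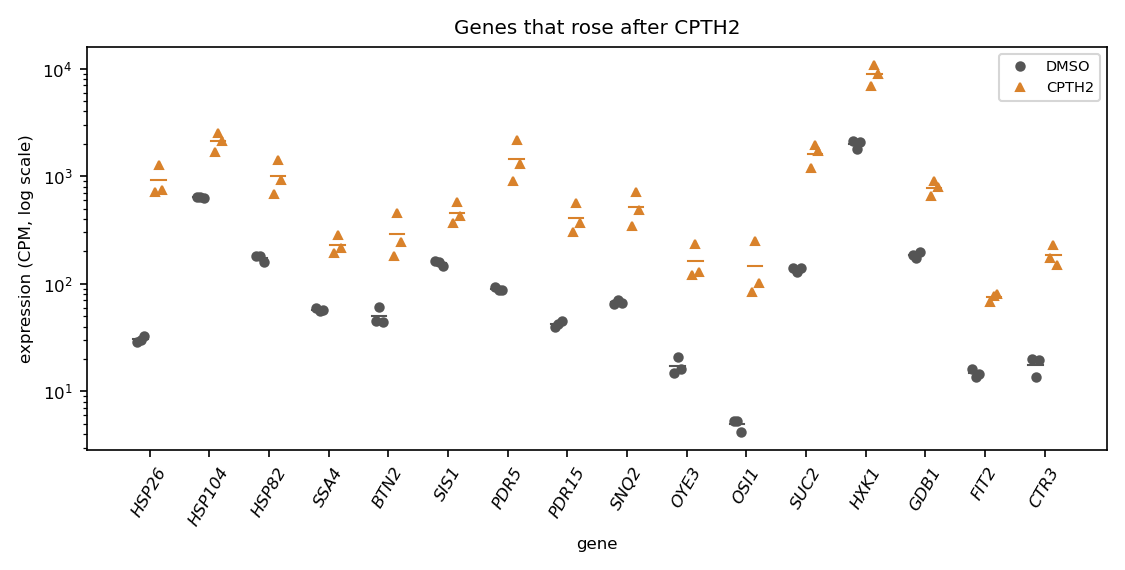
Expression of 16 genes that rose, in CPM on a log axis, for the 3 DMSO samples (grey circles) and the 3 CPTH2 samples (orange triangles), with the group mean as a line. All CPTH2 samples lie above all DMSO samples of the same gene, from HSP26 at 721 to 1282 CPM against 28.5 to 32.9 down to FIT2 at 68.2 to 80.3 CPM against 13.6 to 16.1. Of all called genes, 99.07% had groups that did not overlap.

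Most storage carbohydrate genes rose, and a part of the hexose transport and sensing genes did. Trehalose and glycogen are the reserve carbohydrates of yeast, and 16 of 20 genes of their synthesis and breakdown rose and 1 fell (median 0.89). GDB1, the glycogen debranching enzyme, was at 186, 175 and 196 CPM in the DMSO samples and 651, 898 and 791 CPM in the CPTH2 samples, without overlap. GDB1 rose by 2.07 ± 0.13 on the log2 scale (SE, edgeR adjusted p = 9.6e-06), as did GPH1, glycogen phosphorylase, by 1.58 ± 0.11 on the log2 scale (SE, edgeR adjusted p = 1.1e-05), while PGM1, the minor phosphoglucomutase, fell by 0.68 ± 0.09 on the log2 scale (SE, edgeR adjusted p = 0.0002). The stress response element AGGGG lay in 80% of the windows of this list (16 of 20). It lay also in 63.6% of the histone windows (7 of 11), a list in which 0 genes rose and 9 fell. In the subtelomeric COS family, with 0 rises and 3 falls, it lay in 72.7% of the windows (8 of 11). Of 32 hexose transporter and glucose sensing genes, 16 rose and 3 fell (median 0.61). SUC2, invertase, which splits sucrose outside the cell and is repressed by glucose, was at 139, 128 and 140.3 CPM in the DMSO samples and 1183, 1942 and 1704 CPM in the CPTH2 samples. SUC2 rose by 3.57 ± 0.19 on the log2 scale (SE, edgeR adjusted p = 6.4e-06), with no overlap. HXK1, a hexokinase of cells on poor sugars, rose by 2.16 ± 0.17 on the log2 scale (SE, edgeR adjusted p = 2e-05), and HXK2, the hexokinase of cells on glucose, fell by 1.01 ± 0.14 on the log2 scale (SE, edgeR adjusted p = 0.00033). HXT5, a transporter of slow growth, rose by 2.08, and HXT1, the low-affinity transporter, fell by 0.92 on the log2 scale.

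Most genes of the TCA cycle and of gluconeogenesis and acetate use rose, and a smaller part of the respiratory chain genes did. Of 23 genes of gluconeogenesis, the glyoxylate cycle and acetate use, 15 rose and 1 fell (median 0.94). JEN1, the lactate permease, was at 428, 339 and 476 CPM in the DMSO samples and 1347, 1874 and 1663 CPM in the CPTH2 samples, without overlap. JEN1 rose by 1.97 ± 0.17 on the log2 scale (SE, edgeR adjusted p = 2.7e-05), PCK1, which commits carbon to gluconeogenesis, rose by 1.52, and ALD5, a mitochondrial aldehyde dehydrogenase, fell by 1.45 ± 0.13 on the log2 scale (SE, edgeR adjusted p = 3.4e-05). In the TCA cycle 15 of 24 genes rose and 1 fell (median 0.73). KGD1, a subunit of the ketoglutarate dehydrogenase, rose by 1.41 ± 0.12 on the log2 scale (SE, edgeR adjusted p = 2.9e-05). Of 50 nuclear genes of the respiratory chain and ATP synthase, 17 rose and 0 fell (median 0.47). NDE2, an external NADH dehydrogenase, rose by 1.91, while CYC1, cytochrome c, was not called (log2 fold change 0.09 ± 0.16, SE, edgeR adjusted p = 0.65). Mitochondrial ribosomal protein genes had 5 of 71 up and 0 down (median 0.22). Under upper-quartile scaling and without CPTH2 replicate 2, 0 of these rises were called, against 3 without DMSO replicate 2, 2 without DMSO replicate 3 and 8 without CPTH2 replicate 1.

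Genes of stationary phase and general stress rose in 26 of 35 cases and fell in 0 (median 1.15). HSP12, a membrane-associated stress protein, was at 885, 633 and 1009.7 CPM in the DMSO samples and 3849, 4778 and 3515 CPM in the CPTH2 samples, a clear separation of the groups. HSP12 rose by 2.26 ± 0.19 on the log2 scale (SE, edgeR adjusted p = 2.8e-05). SPG1, named for stationary phase, and SIP18, induced by salt, rose by 2.64 and 2.54 on the log2 scale. DDR2, first known from DNA damage, rose by 1.67 ± 0.16 on the log2 scale (SE, edgeR adjusted p = 4.1e-05). HSF1, which encodes the heat shock factor itself, rose by 0.76 ± 0.10 on the log2 scale (SE, edgeR adjusted p = 0.00017).

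Most genes of iron uptake rose, and a part of the copper genes did. Of 22 genes of siderophore and reductive iron uptake, 16 rose and 1 fell (median 0.96). FIT2, a mannoprotein of the cell wall that retains siderophores, was at 16.1, 13.6 and 14.4 CPM in the DMSO samples and 68.2, 76.8 and 80.3 CPM in the CPTH2 samples. FIT2 rose by 2.36 ± 0.10 on the log2 scale (SE, edgeR adjusted p = 2.6e-06), with tight groups and no overlap. FET3, the multicopper oxidase of the high-affinity pathway, was at 68, 74.2 and 68.5 CPM in the DMSO samples and 181, 275 and 234 CPM in the CPTH2 samples. FET3 rose by 1.71 ± 0.14 on the log2 scale (SE, edgeR adjusted p = 2.3e-05), while FTR1, the permease that works with it, fell by 0.70 ± 0.08 on the log2 scale (SE, edgeR adjusted p = 7.7e-05). TIS11, an mRNA-binding factor of the iron response, rose by 1.97 ± 0.17 on the log2 scale (SE, edgeR adjusted p = 3.1e-05), and GRX4, a glutaredoxin that relays iron status, fell by 1.23 ± 0.10 on the log2 scale (SE, edgeR adjusted p = 2.3e-05). Of 12 copper genes, 6 rose and 0 fell (median 0.54). CTR3, a copper transporter, was at 19.9, 13.5 and 19.5 CPM in the DMSO samples and 174, 227 and 149 CPM in the CPTH2 samples, without overlap. CTR3 rose by 3.40 ± 0.19 on the log2 scale (SE, edgeR adjusted p = 7.2e-06), CTR1, another copper transporter, rose by 1.53, and CUP1-1, the metallothionein whose copies share reads, was not called (log2 fold change -0.14 ± 0.27, SE, edgeR adjusted p = 0.68). The upstream stretch of FIT2 is shown with the sites of the iron regulator Aft1 (TGCACCC, either strand) in capitals.
FIT2, chrXV:1059194-1059294, plus strand: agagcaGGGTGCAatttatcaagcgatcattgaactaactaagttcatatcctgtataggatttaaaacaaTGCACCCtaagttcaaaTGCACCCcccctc
TGCACCC occurred in 2.28% of all windows, in 5.56% of those of genes that rose, in 1.68% of those of genes that fell and in 86.4% of those of the iron uptake list (19 of 22). The share of a list counts its members whether or not they rose, and the window of FTR1, which fell, held 2 matches.

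**Figure D3:**
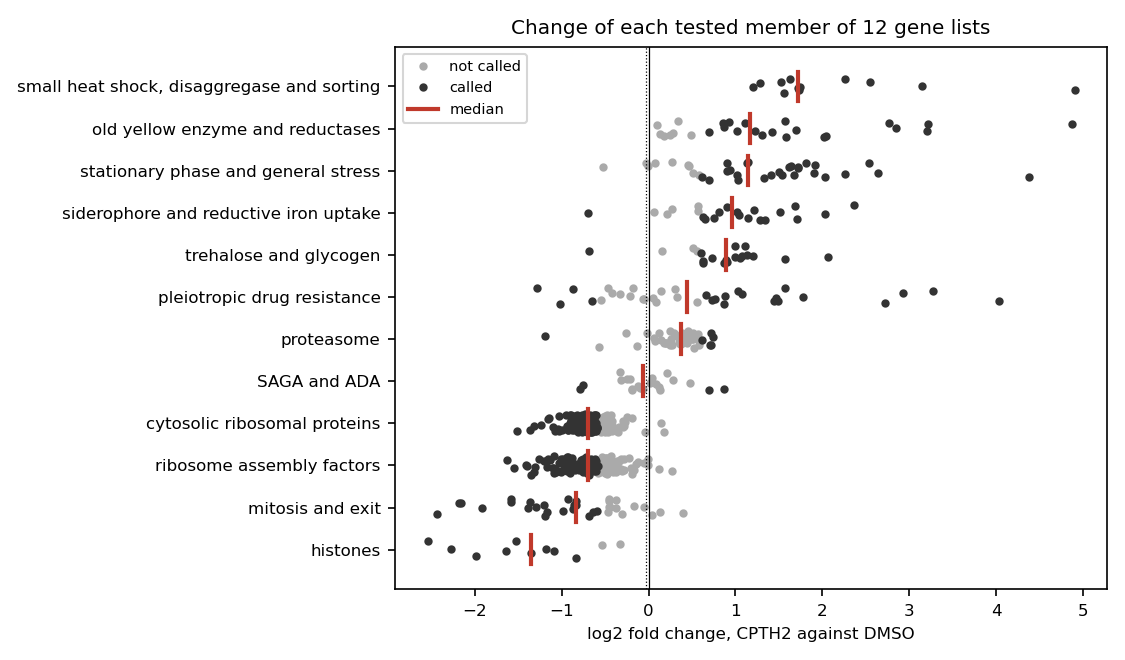
Log2 fold change of every tested member of 12 gene lists, CPTH2 against DMSO, one point per gene, black where the gene was called and grey where it was not, with the list median in red and the median of all genes, -0.03, as a dotted line. The medians run from 1.72 for the small heat shock list to -1.36 for the histones.

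Most genes for the cytosolic ribosome fell. Of 137 ribosomal protein genes, 99 fell and 0 rose (median -0.70), and 49 fell when all 5 groups were fitted in a single model. As a share of the counted reads, ribosomal protein genes took 26.8%, 28.3% and 28% in the DMSO samples and 20.4%, 16.8% and 16.2% in the CPTH2 samples. RPS27A, a protein of the small subunit, was at 264, 286 and 277 CPM in the DMSO samples and 113, 87.5 and 88.9 CPM in the CPTH2 samples. RPS27A fell by 1.52 ± 0.11 on the log2 scale (SE, edgeR adjusted p = 1.6e-05), with CPTH2 samples all below DMSO. RPS3 fell by 0.65 but was not called without CPTH2 replicate 3 (log2 fold change -0.58) or in the model of all 5 groups (edgeR adjusted p = 0.17), and RPL3, a protein of the large subunit, was not called (log2 fold change -0.04 ± 0.10, SE, edgeR adjusted p = 0.76, overlapping groups). Genes that fell were shorter than genes that rose, with median lengths of 819 and 1308 bases against 1095 for all tested, and among the 20% of genes that are shortest 21.2% fell, while among the 20% that are longest 8.67% fell. Ribosomal protein genes are short, and the part of gene length in their fall was not tested.

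Most ribosome assembly genes fell, as did a part of the genes for RNA polymerases I and III. Of 128 ribosome assembly factors, 77 fell and 0 rose (median -0.69), and 61 fell in the model of all 5 groups. NSR1, a nucleolar protein needed for small subunit processing, was at 133, 126 and 109.9 CPM in the DMSO samples and 47.1, 48 and 59.6 CPM in the CPTH2 samples. NSR1 fell by 1.26 ± 0.11 on the log2 scale (SE, edgeR adjusted p = 3.2e-05), without overlap. UTP15, a component of the small subunit processome, was at 14.9, 15.7 and 15.4 CPM in the DMSO samples and 4.11, 5.32 and 5.65 CPM in the CPTH2 samples. UTP15 fell by 1.63 ± 0.13 on the log2 scale (SE, edgeR adjusted p = 2.2e-05), again without overlap, and NOP1, which encodes fibrillarin, fell by 0.90 ± 0.10 on the log2 scale (SE, edgeR adjusted p = 8.7e-05). Of 15 RNA polymerase I genes, 7 fell and 0 rose (median -0.58). RPA49, a subunit of the polymerase, was at 67.1, 60.3 and 52.4 CPM in the DMSO samples and 21.6, 20.8 and 30.4 CPM in the CPTH2 samples, with all CPTH2 samples below DMSO. RPA49 fell by 1.32 ± 0.15 on the log2 scale (SE, edgeR adjusted p = 9.6e-05), RPA190, the largest subunit, fell by 0.71 but was not called without CPTH2 replicate 1 (log2 fold change -0.56), and RPA135, the second largest, was not called (log2 fold change -0.58 ± 0.14, SE, edgeR adjusted p = 0.0064). Of 22 RNA polymerase III genes, 9 fell and 0 rose (median -0.42), with RPC17 down by 1.11 ± 0.12 on the log2 scale (SE, edgeR adjusted p = 7.7e-05) and MAF1, a repressor of the polymerase, not called (log2 fold change -0.10 ± 0.09, SE, edgeR adjusted p = 0.35). Translation factors had 11 of 37 down and 0 up (median -0.32). EFB1, an exchange factor of elongation, fell by 1.01 ± 0.11 on the log2 scale (SE, edgeR adjusted p = 7.1e-05), and TIF1, an initiation helicase, was not called (log2 fold change -0.18 ± 0.11, SE, edgeR adjusted p = 0.18).

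Of these genes, NSR1 and RPA49 are shown for the PAC (GCGATGAG) and RRPE (AAAATTTT) elements, in capitals, on either strand.
NSR1, chrVII:807814-807850, minus strand: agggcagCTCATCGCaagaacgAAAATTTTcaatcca
RPA49, chrXIV:182723-182758, minus strand: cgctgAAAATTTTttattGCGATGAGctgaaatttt
GCGATGAG occurred in 4.87% of all windows, 2.6% of those of genes that rose, 9.48% of those of genes that fell and 49.2% of those of the ribosome assembly list (63 of 128). AAAATTTT occurred in 12.4% of all windows, 7.09% and 21.4% of those of genes that rose and fell, and 71.9% of those of the ribosome assembly list (92 of 128). Among the 15 windows of RNA polymerase I genes, GCGATGAG occurred in 1 (6.67%), that of RPA49, and AAAATTTT in 9 (60%). Among the 137 windows of cytosolic ribosomal protein genes, GCGATGAG occurred in 1 (0.73%) and AAAATTTT in 17 (12.4%).

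Histone genes had the lowest median of the 61 lists. Of 11 histone genes, 9 fell and 0 rose (median -1.36). HTA2 and HTB2, one of the 2 gene pairs for H2A and H2B, changed most. HTA2 was at 501, 538 and 546 CPM in the DMSO samples and 151, 37.2 and 82.7 CPM in the CPTH2 samples, with the CPTH2 samples uneven but all below DMSO. HTA2 fell by 2.55 ± 0.47 on the log2 scale (SE, edgeR adjusted p = 0.0035). HTB2 was at 390.0, 371 and 383 CPM in the DMSO samples and 118, 30.6 and 87.8 CPM in the CPTH2 samples, with the CPTH2 samples in the same order as for HTA2. HTB2 fell by 2.27 ± 0.45 on the log2 scale (SE, edgeR adjusted p = 0.0049). HHF1, a gene for H4, was at 985, 895 and 884 CPM in the DMSO samples and 328, 139 and 229.8 CPM in the CPTH2 samples. HHF1 fell by 1.99 ± 0.26 on the log2 scale (SE, edgeR adjusted p = 0.00019), and its copy HHF2, with which it can share reads, fell by 1.64. HTA1, HTB1, HHT1 and HHT2 fell too (log2 fold changes -1.09, -1.36, -1.52 and -1.18). The genes of the enzymes that acetylate histones were largely not called. In SAGA and ADA, 2 of 21 genes rose and 2 fell (median -0.06), and under upper-quartile scaling 1 rose. GCN5, the acetyltransferase named as the target of CPTH2, was at 89, 85 and 76.8 CPM in the DMSO samples and 70.0, 60.4 and 69.7 CPM in the CPTH2 samples. GCN5 was not called at the 1.5-fold threshold (log2 fold change -0.32 ± 0.09, SE, edgeR adjusted p = 0.0098), with all 3 CPTH2 samples below all DMSO samples. ADA2 and NGG1, its partners, were not called either (log2 fold changes -0.20 and -0.31). AHC1, which belongs to ADA, rose by 0.87 ± 0.09 on the log2 scale (SE, edgeR adjusted p = 7.5e-05), and SGF11, of the deubiquitinating module, fell by 0.80 ± 0.11 on the log2 scale (SE, edgeR adjusted p = 0.00032). Of 22 genes of other acetyltransferase complexes, 1 rose and 2 fell, among them RTT109, the acetyltransferase of newly made H3, which fell by 1.18 ± 0.15 on the log2 scale (SE, edgeR adjusted p = 0.00018). Of 30 genes of deacetylases and sirtuins, 1 rose and 3 fell, with HST4, a sirtuin that acts on newly made H3, at a log2 fold change of -0.94 and not called in the model of all 5 groups (edgeR adjusted p = 0.10). In these last lists the counts were small and moved with single samples, from 0 to 2 rises in both when a replicate of either group was left out, and under upper-quartile scaling 4 and 7 members fell.

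A part of the cell division genes fell. Of 25 G1/S genes, 12 fell and 0 rose (median -0.57). CLN2, a G1 cyclin, was at 39.5, 38.1 and 37.9 CPM in the DMSO samples and 13, 11.8 and 15.9 CPM in the CPTH2 samples. CLN2 fell by 1.51 ± 0.11 on the log2 scale (SE, edgeR adjusted p = 1.5e-05), without overlap, and PCL1, a cyclin that pairs with Pho85, fell by 2.45 ± 0.28 on the log2 scale (SE, edgeR adjusted p = 9.3e-05). HO, the mating type switching endonuclease, made in G1, was at 14.5, 11.6 and 12.5 CPM in the DMSO samples and 1.39, 0.953 and 1.95 CPM in the CPTH2 samples, with all CPTH2 samples far below DMSO. HO fell by 3.18 ± 0.21 on the log2 scale (SE, edgeR adjusted p = 9.6e-06). Of 44 replication and ribonucleotide reductase genes, 18 fell and 1 rose (median -0.51), the rise being that of the damage-inducible RNR3 (log2 fold change 0.60), which was not called without DMSO replicate 1 or CPTH2 replicate 3, under upper-quartile scaling or in the model of all 5 groups. POL30, the sliding clamp, was at 41.6, 39.8 and 36.3 CPM in the DMSO samples and 11.3, 5.95 and 11.5 CPM in the CPTH2 samples. POL30 fell by 2.03 ± 0.20 on the log2 scale (SE, edgeR adjusted p = 4.4e-05), and RNR1, the large subunit of ribonucleotide reductase, fell by 1.53. Of 34 genes of mitosis and exit, 21 fell and 0 rose (median -0.84). DSE1 was at 177, 159 and 148 CPM in the DMSO samples and 39.3, 21.8 and 27.3 CPM in the CPTH2 samples. DSE1, a daughter-specific gene of cell separation, fell by 2.44 ± 0.18 on the log2 scale (SE, edgeR adjusted p = 1.6e-05), and DSE2 and SCW11, with the same role, fell (log2 fold changes -2.19 and -2.16). CLB1 and CLB2, mitotic cyclins, fell (log2 fold changes -1.58 and -0.84), and CDC5, the polo kinase, was not called (log2 fold change -0.38 ± 0.16, SE, edgeR adjusted p = 0.062). In these bulk samples, fewer cells in a phase and less RNA per cell cannot be told apart.

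POL30 is shown because it holds the elements of SBF (CNCGAAA) and MBF (ACGCGT) side by side, in capitals, sharing 1 base.
POL30, chrII:425950-425973, minus strand: ccaaaaCGCGAAACGCGTaacttt
ACGCGT occurred in 5.46% of all windows, 3.43% of those of genes that rose, 9.08% of those of genes that fell and 59.1% of those of the replication list (26 of 44). CNCGAAA occurred in 22% of all windows, 18.9% and 26.9% of those of genes that rose and fell, and 68% of those of the G1/S list (17 of 25).

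**Figure D4:**
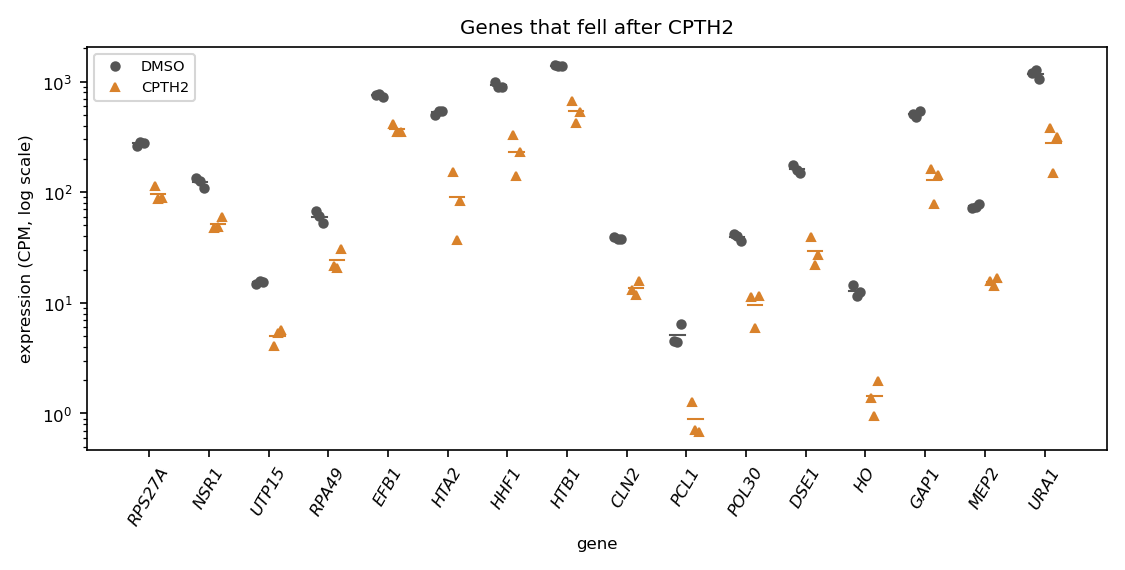
Expression of 16 genes that fell, in CPM on a log axis, for the 3 DMSO samples (grey circles) and the 3 CPTH2 samples (orange triangles), with the group mean as a line. All CPTH2 samples lie below all DMSO samples of the same gene, and HO fell from between 11.6 and 14.5 CPM to between 0.953 and 1.95 CPM. Of all called genes, 99.07% had groups that did not overlap.

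Members of several nitrogen and nucleotide lists fell. Of 10 lysine synthesis genes, 6 fell and 0 rose (median -0.88). LYS9, saccharopine dehydrogenase, was at 1380.2, 1358 and 1275 CPM in the DMSO samples and 670.4, 314 and 584 CPM in the CPTH2 samples, without overlap. LYS9 fell by 1.36 ± 0.24 on the log2 scale (SE, edgeR adjusted p = 0.00098), and LYS20, homocitrate synthase, was not called (log2 fold change -0.34 ± 0.14, SE, edgeR adjusted p = 0.062). Of 21 genes of allantoin, urea and ammonium use, 9 fell and 1 rose (median -0.39). MEP2, the high-affinity ammonium permease, was at 71.8, 74.2 and 78.9 CPM in the DMSO samples and 15.8, 14.3 and 16.6 CPM in the CPTH2 samples, with tight groups. MEP2 fell by 2.27 ± 0.09 on the log2 scale (SE, edgeR adjusted p = 2.6e-06). Of 27 amino acid permease genes, 4 rose and 4 fell (14.81% each, median -0.03), close to the shares of all tested genes. Among those that fell were GAP1, the general permease, and AGP1 (log2 fold changes -2.0 and -1.85). Of 16 pyrimidine genes, 9 fell and 1 rose (median -0.64). URA1, dihydroorotate dehydrogenase, was at 1185, 1265 and 1049.8 CPM in the DMSO samples and 381, 149 and 313 CPM in the CPTH2 samples. URA1 fell by 2.05 ± 0.29 on the log2 scale (SE, edgeR adjusted p = 0.00029), with CPTH2 replicate 2 the lowest. Of 26 purine and GTP genes, 8 fell and 1 rose (median -0.31), the rise being that of IMD2, an inosine monophosphate dehydrogenase with close paralogues, by 1.84 ± 0.17 on the log2 scale (SE, edgeR adjusted p = 4e-05). PHO3 and OPT2, an acid phosphatase and an oligopeptide transporter, belonged to the 10 largest decreases and fell (log2 fold changes -2.13 and -2.06).

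Cell wall genes moved both ways, 12 of 44 up and 10 down (median 0.15). TIP1, a mannoprotein of the wall, was at 50.4, 49.9 and 45.2 CPM in the DMSO samples and 259, 249 and 323 CPM in the CPTH2 samples. TIP1 rose by 2.51 ± 0.12 on the log2 scale (SE, edgeR adjusted p = 4.3e-06), without overlap, and PIR3, a wall protein linked to stress, rose by 2.34. GAS3, of the Gas family of wall proteins, fell by 1.26 ± 0.12 on the log2 scale (SE, edgeR adjusted p = 4.1e-05). The kinase gene SLT2, which controls wall integrity, was not called (log2 fold change -0.21 ± 0.08, SE, edgeR adjusted p = 0.044). Of the 24 lists not described in full, with 558 members tested, 86 members rose and 85 fell, and the list medians lay between -0.47 and 0.34.

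The comparison with Curcumin asks how far the response to CPTH2 differs from that to the other inhibitor. Curcumin was used at 200 µM and CPTH2 at 400 µM, so that compound and dose cannot be told apart. Fitted to the 6 samples of the pair, 3294 of 6588 genes (50%) were called, 1545 (23.5%) higher and 1749 (26.5%) lower in CPTH2. Without CPTH2 replicate 1 or 2, 2104 or 2220 were called. Under scaling by library size alone, 994 were higher and 2380 lower. SUC2 and CTR3 were higher in CPTH2, with log2 differences of 3.03 ± 0.58, SE, edgeR adjusted p = 0.0049 and 2.52 ± 0.38, SE, edgeR adjusted p = 0.0022. OYE3 and HO were lower in CPTH2, with log2 differences of -3.05 ± 0.39, SE, edgeR adjusted p = 0.0015 and -5.21 ± 0.46, SE, edgeR adjusted p = 0.00099. SCW11 was lower too (log2 difference -2.27 ± 0.32, SE, edgeR adjusted p = 0.0019). MEP2 and URA1 were called with all samples (log2 differences -1.76 ± 0.55, SE, edgeR adjusted p = 0.03, and 1.37 ± 0.40, SE, edgeR adjusted p = 0.024), and both lost the call without Curcumin replicate 2, CPTH2 replicate 1 or CPTH2 replicate 3 (edgeR adjusted p from 0.054 to 0.097). MEP2 lost it also without CPTH2 replicate 2 (edgeR adjusted p = 0.093), and URA1 under library size scaling (edgeR adjusted p = 0.052). HSP26 was not called between the inhibitors (log2 difference 1.09 ± 0.52, SE, edgeR adjusted p = 0.12), nor was PDR5 (log2 difference -0.43 ± 0.47, SE, edgeR adjusted p = 0.47) or HTA2 (log2 difference 0.47 ± 0.46, SE, edgeR adjusted p = 0.42), and a p that misses the threshold does not show that the levels were alike. By list, ribosomal protein genes had 76 of 137 higher and 0 lower in CPTH2 (median 1.21), ribosome assembly factors 4 higher and 63 lower of 128 (median -0.84), and respiratory chain genes 37 higher and 4 lower of 50 (median 1.5). Against DMSO, the medians of these lists in the same order were -1.99, 0.10 and -0.89 for Curcumin. For CPTH2 against DMSO they were -0.70, -0.69 and 0.47.

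**Figure D5:**
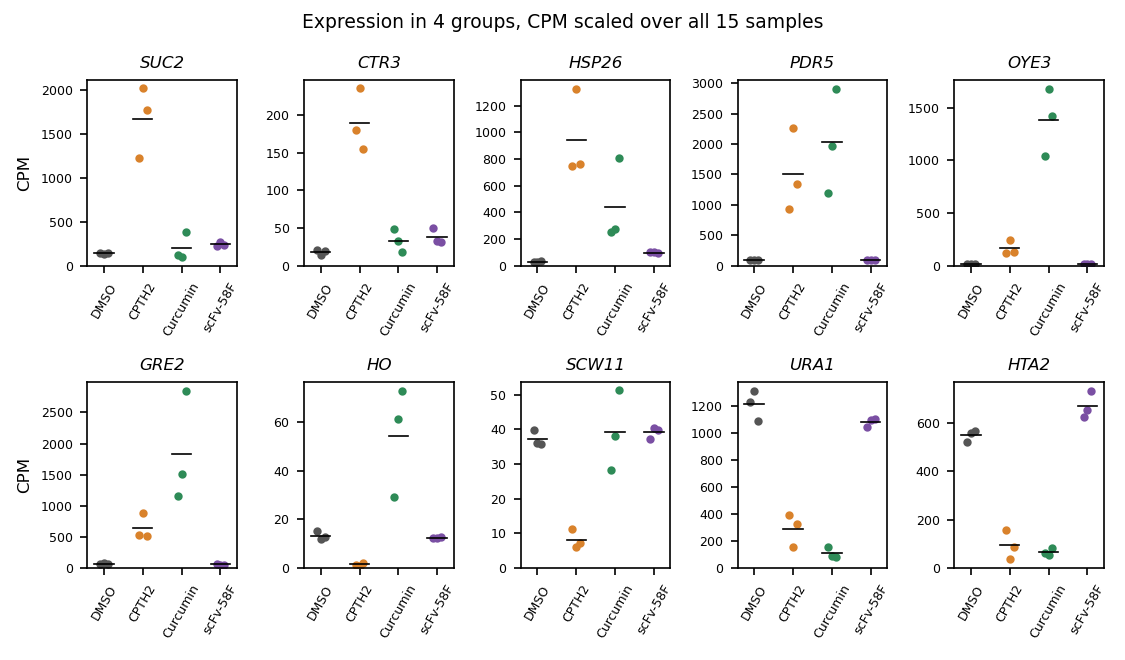
Expression of 10 genes in CPM scaled over all 15 samples, with 3 samples per group as points and the mean as a line, for DMSO, CPTH2, Curcumin and scFv-58F. SUC2 and CTR3 are highest in CPTH2, OYE3 is highest in Curcumin, and HO is lowest in CPTH2 and highest in Curcumin.

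Against scFv-58F, the strain that expresses the intrabody in 0.4% DMSO, strain and drug differ together and cannot be told apart. In the 6 samples of this pair, 1810 of 6588 genes (27.5%) were called, 912 (13.8%) higher and 898 (13.6%) lower in CPTH2. With library size alone, 1127 were higher and 696 lower, and under upper-quartile scaling 740 were higher and 1184 lower. HSP26 was higher in CPTH2 (log2 difference 3.27 ± 0.22, SE, edgeR adjusted p = 6.7e-06), and so was PDR5 (log2 difference 4.01 ± 0.30, SE, edgeR adjusted p = 2e-05). HTA2 was lower in CPTH2 (log2 difference -2.83 ± 0.49, SE, edgeR adjusted p = 0.0035), as were HO (log2 difference -3.09 ± 0.19, SE, edgeR adjusted p = 5.2e-06) and PHO3 (log2 difference -1.04 ± 0.20, SE, edgeR adjusted p = 0.0014). Both this comparison and that with DMSO rest on the same CPTH2 samples. Histones had 10 of 11 lower and 0 higher (median -1.67), ribosomal protein genes 66 lower and 0 higher of 137 (median -0.58), and small heat shock genes 9 higher and 0 lower of 12 (median 1.11).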

How the data were processed

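RNA from 6 cultures, 3 with DMSO and 3 with CPTH2, was analysed, beside the 3 Curcumin and 3 scFv-58F samples for the direct comparisons. Titles gave the group and replicate number of a sample, and the study's design text gave the doses and the treatment time. According to the methods, a stranded mRNA kit was used and all libraries shared a single-read lane, and the submitters' processing notes name bcl2fastq 1.8.4, FastQC and cutadapt. Reads were mapped with segemehl to build sacCer3 and counted by the authors with NGSutils 0.5.9. The deposited files list 6692 genes, each with a raw count of whole reads that ignores strand and splits reads with several mapping positions. Overlapping genes and near-identical copies therefore cannot be told apart. The deposited CPM values are the counts scaled by the authors to mapped reads, and the deposited RPKM values are these per kilobase of gene. Only the counts were used, and CPM in the text was recomputed from them with TMM scaling over the samples of a comparison.

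A gene was kept where 3 or more of the 15 samples held 10 or more counts (6588 genes). Each pair of groups was fitted separately to its 6 samples with edgeR 4.0.16 in R 4.3.3 by the quasi-likelihood test, and p-values were adjusted over all tested genes by the Benjamini-Hochberg method. A call needed an adjusted p below 0.05 and a change of 1.5-fold or more. The standard error is the log2 fold change over the square root of F. DESeq2 1.42.0, other scalings, filters, thresholds, a model of all 5 groups, a replicate block and the removal of single samples were the alternatives.

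Named genes were the 10 largest increases and decreases among called genes with at least 10 CPM in the higher group, and the key genes and the largest called changes of each list. The comparison, its 61 gene lists and the motifs were chosen with earlier results of these data known. Upstream windows of 500 bases before the start codon were read from the R64 reference genome, whose gene coordinates equalled those of the files for 6000 of 6008 matched identifiers, and sequences are from RefSeq. Tables were summarised in Python 3.11.15 with pandas 2.3.3.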

Additional observations from a re-analysis of the deposited data

How the results depend on the processing

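The number of genes called between CPTH2 and DMSO, 2043, stayed between 1721 and 2245 under DESeq2, other scalings, other filters and the model of all 5 groups, and between 1799 and 2282 when single samples were left out. It was 4212 without a fold change cutoff, 1003 by a test against a fold change of 1.5 (edgeR's glmTreat) and 656 at a fold change of at least 2. Against Curcumin, 3294 genes became 2000 by glmTreat, 2393 at 2-fold, and 2104 to 3793 when single samples were left out, the lowest without CPTH2 replicate 1. Against scFv-58F, 1810 genes became 777 by glmTreat, 3942 without a cutoff, 575 at 2-fold, and 1536 to 2093 when single samples were left out.

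Of the called genes given with a fold change against DMSO, 100 kept the call under every setting other than glmTreat and the 2-fold threshold, and 5 did not, namely HST4, RNR3, RPA190, RPS3 and TKL1. The direction turned for genes and lists near no change. Under upper-quartile scaling, CYC1 was at -0.064 and TSA1 at -0.13. Without a single sample, CUP1-1 ranged from -0.37 (CPTH2 replicate 2 left out) to 0.22 (DMSO replicate 2), CYC1 from -0.12 (CPTH2 replicate 2) to 0.20 (CPTH2 replicate 3), TSA1 from -0.046 (CPTH2 replicate 2) to 0.094 (CPTH2 replicate 1), and HTA2 against Curcumin from -0.11 (CPTH2 replicate 1) to 0.84 (CPTH2 replicate 2). The median of the other acetyltransferase complexes ranged from -0.073 to 0.012, the highest without DMSO replicate 1, and was 0.017 without the pair of samples with more reads off genes, where that of the deacetylases was 0.0038. The cause was not tested.

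A block for the replicate number gave 2054 calls against DMSO, 3134 against Curcumin and 1820 against scFv-58F. The numbers were not taken to pair the samples, since the mean correlation of deviations was -0.18 for the same number and 0.09 for different numbers.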
